A study of Homo sapiens with 10 samples.

Results

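The interferon-stimulated genes described here are a list of 49 symbols, matched as written to the 58381 gene rows of each deposited table, of which 40 passed the expression filter. The list holds 40 genes usually read as type I interferon targets (type I-type) and 9 usually read as interferon gamma targets (gamma-type: IRF1, GBP1 to GBP5, PSMB8, PSMB9 and TAP1), of which 32 and 8 were tested. RNA came from GIST-T1, an established human cell line from a metastatic gastrointestinal stromal tumour (GIST), with intact succinate dehydrogenase per the series' design text. The 4 lines with a disrupted CTCF insulator, carrying the genotype labels InsE, InsF, InsG and InsH, and the control, carrying the genotype label WT, had 2 libraries each, 10 in all. CTCF is a protein that binds DNA and helps to set the borders of chromosome loops. Which sites were changed in which line, and whether a line grew from 1 clone, are not in the labels. Nor do they say that the paired libraries came from separate cultures, and p-values then measure only how far these libraries spread, which can be a technical spread. No group was labelled as treated with interferon.

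Interferons are secreted proteins, and those of type I are made by cells on sensing viral nucleic acid. Type I interferons signal through the IFNAR receptor, the kinases JAK1 and TYK2, and a complex holding STAT2 and IRF9 that binds the interferon-stimulated response element (ISRE). Interferon gamma signals through the IFNGR receptor, JAK1 and JAK2 to the gamma-activated site (GAS), and its targets include the factor IRF1, the guanylate-binding proteins and the antigen-processing genes. Many genes respond to both kinds, so the split into type I-type and gamma-type is a working division.

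The libraries held 9.4 to 42.5 M (mega) estimated counts. CPM, the usual counts scaled to library size, here with TMM, is used within a gene, and TPM, corrected for length, is used between genes. Of 7 markers of GIST cells, among them KIT and ANO1, none was at 0 in any group, with a summed level of 5816 to 5967 CPM in InsE, 5916 to 6290 CPM in InsF, InsG and InsH, and 8089 to 8131 CPM in control. CD34 gave most of that sum in InsE (3382 and 3583 CPM). Against control, 6 of the 7 were called lower in InsE and 0 higher (12.4% and 10.8% of all genes, edgeR adjusted p under 0.05). In the mean of InsF, InsG and InsH against control, 2 were called higher and 4 lower (14.1% and 14.9% of all genes). Against that mean, 3 were called lower in InsE and 0 higher (12.8% and 11.4% of all genes). A list of 10 leukocyte markers summed to 3.01 to 3.39 CPM in InsE, 2.76 to 3.77 CPM in InsF, InsG and InsH, and 2.57 to 3.39 CPM in control, with 3 or 4 of the 10 at 0 in each group and PTPRC, the pan-leukocyte marker CD45, at 2 counts in all libraries together. A list of 7 fibroblast markers, with FAP at 0 in all libraries, summed to 3865 to 4038 CPM in InsE, 5718 to 6535 CPM in InsF, InsG and InsH, and 4698 to 4704 CPM in control. COL3A1 gave most of the sum in InsE (2689 and 2852 CPM), so the sum does not describe each marker. Of 5 tested markers, 2 were called higher and 2 lower in InsE against control (edgeR adjusted p under 0.05). Over all genes these shares were 10.8% and 12.4%. Against the mean of InsF, InsG and InsH, 2 of the 5 were called lower in InsE and 0 higher (12.8% and 11.4% of all genes). The part of these marker differences in the results was not tested. In such bulk libraries, fewer cells that express a gene and less RNA per cell cannot be told apart.

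InsE had lower levels of most interferon-stimulated genes than the other 3 insulator lines. In InsE against the mean of InsF, InsG and InsH, 27 of the 40 tested genes passed as lower (edgeR adjusted p under 0.05), where 12.8% of all 15554 genes tested were called lower and 24.2% were called in either direction. None passed as higher, against 11.4% of all genes, with 1 at an unadjusted p under 0.05, none by DESeq2 or limma, and 1, BST2 (0.11), with the replicate number as a block. The expression filter asked for 0.465 CPM in at least 2 libraries, and 10 of the 40 genes reached it in no InsE library, so that they entered the test through libraries where they were higher and a lower call in InsE was favoured. Of these 10 genes 8 passed as lower (OAS2, GBP2, GBP4, RSAD2, IFIH1, PSMB9, SAMD9 and SAMD9L), 3 of them (OAS2, GBP4 and SAMD9) reaching it in libraries of InsF, InsG and InsH alone. Of the 30 genes that reached it in an InsE library 19 passed as lower. The median log2 difference was -0.77 over the 40 genes and 0.01 over all genes tested. Every InsE library lay below all 6 libraries of InsF, InsG and InsH for 28 of the 40 genes, where 17.5% of all genes did so. Without InsE replicate 1 the count of lower genes was 21, and without InsE replicate 2, the shallowest library, it was 24. This contrast uses no control level.

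**Figure D1:**
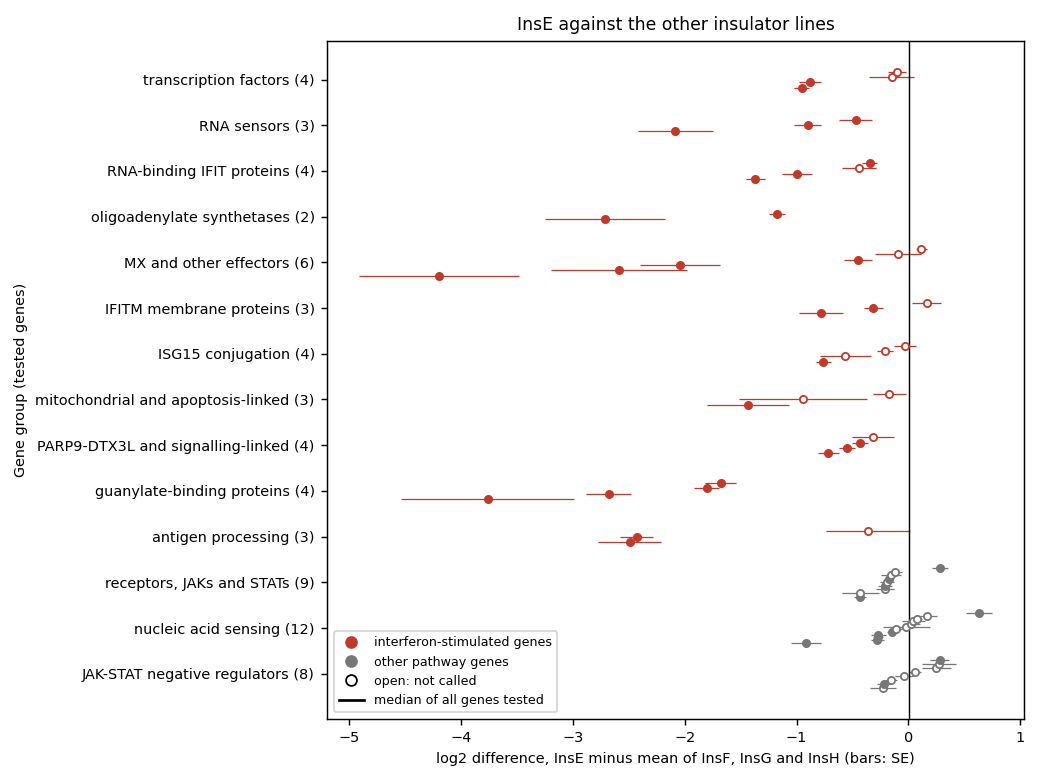
Log2 difference of each tested gene, InsE minus the mean of InsF, InsG and InsH (x axis), by gene group (y axis, number tested in brackets). Points are genes, bars are SE, filled points passed the test, and the vertical line is the median of all genes tested. Guanylate-binding proteins, antigen processing genes and several antiviral effectors lie furthest left, and no interferon-stimulated gene passed to the right of the line.

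In InsE, the median difference was further below 0 for the gamma-type than for the type I-type genes. Of the 8 tested gamma-type genes 7 passed as lower in InsE than in the mean of InsF, InsG and InsH, with a median log2 difference of -2.11. Of the 32 tested type I-type genes 20 passed as lower, with a median of -0.56. Over all genes 12.8% were called lower in that comparison. Against control, InsE was lower for 5 of 8 gamma-type genes (median -1.65) and 12 of 32 type I-type genes (median -0.61). Over all genes 12.4% were called lower. Only IFIT1 and BST2 of the tested members were higher, where 10.8% of all genes were called higher. The mean of InsF, InsG and InsH was higher than control for 4 of 8 gamma-type genes (median 0.50) and 6 of 32 type I-type genes (median 0.15), and lower for 5 type I-type genes, where 14.1% of all genes were called higher and 14.9% lower. The type I-type shares in that comparison were near those of all genes. Of the 8 gamma-type genes 4 (GBP2, GBP4, PSMB8 and PSMB9) reached the filter in no InsE library, and the medians over tested genes depend on which genes were admitted. The difference between the kinds was not tested, and the fitted values of the lowest genes, such as GBP4 and SAMD9, are uncertain in size.

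Promoter windows were searched for the ISRE core (GAAA, any 2 bases, GAAA, on either strand) and the GAS core (TTC, any 3 bases, GAA, which reads the same on both strands), from 250 bases before to 50 after the start site in RefSeq (GRCh38.p14). Of the 49 genes 39 matched a window. An ISRE core stood in 25 of the 39 (64.1%), where 3.65% of all 27305 windows held one, and a GAS core in 11 (28.2%), where 7.88% of all did. ISRE cores stood in 15 of 24 windows of genes lower in InsE (62.5%) and in 6 of 10 windows of tested genes that did not pass. ISRE and GAS matches overlapped in 5 pairs. Shown here, from 200 bases before to 20 after the start site, are the 6 matched genes that passed as lower in InsE with the largest difference from the mean of InsF, InsG and InsH, 5′ to 3′ on the gene's strand, with ISRE letters in capitals on either strand and no GAS core in any of the 6.
SAMD9 (chr7:93117960-93118179, minus strand): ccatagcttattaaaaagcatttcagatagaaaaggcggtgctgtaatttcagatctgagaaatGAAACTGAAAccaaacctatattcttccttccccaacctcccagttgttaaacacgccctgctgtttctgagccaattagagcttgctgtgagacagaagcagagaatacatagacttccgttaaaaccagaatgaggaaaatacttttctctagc
GBP4 (chr1:89198923-89199142, minus strand): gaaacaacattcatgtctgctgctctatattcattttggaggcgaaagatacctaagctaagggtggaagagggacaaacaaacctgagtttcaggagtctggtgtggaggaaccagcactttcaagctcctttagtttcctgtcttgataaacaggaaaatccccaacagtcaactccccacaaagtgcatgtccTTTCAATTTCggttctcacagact
SAMD9L (chr7:93148366-93148585, minus strand): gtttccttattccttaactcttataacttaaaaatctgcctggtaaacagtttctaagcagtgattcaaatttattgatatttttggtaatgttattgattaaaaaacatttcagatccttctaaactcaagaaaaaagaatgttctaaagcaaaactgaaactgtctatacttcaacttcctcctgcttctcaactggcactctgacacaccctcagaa
PSMB9 (chr6:32853992-32854211, plus strand): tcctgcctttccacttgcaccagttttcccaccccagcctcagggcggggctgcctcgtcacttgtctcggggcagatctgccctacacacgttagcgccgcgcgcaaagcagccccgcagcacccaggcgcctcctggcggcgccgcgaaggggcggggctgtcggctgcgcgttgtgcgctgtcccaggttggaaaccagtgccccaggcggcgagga
TAP1 (chr6:32853685-32853904, minus strand): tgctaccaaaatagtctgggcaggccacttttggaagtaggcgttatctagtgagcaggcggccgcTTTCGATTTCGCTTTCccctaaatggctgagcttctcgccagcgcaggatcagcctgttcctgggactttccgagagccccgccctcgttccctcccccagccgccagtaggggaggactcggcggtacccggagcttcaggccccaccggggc
IFIH1 (chr2:162318665-162318884, minus strand): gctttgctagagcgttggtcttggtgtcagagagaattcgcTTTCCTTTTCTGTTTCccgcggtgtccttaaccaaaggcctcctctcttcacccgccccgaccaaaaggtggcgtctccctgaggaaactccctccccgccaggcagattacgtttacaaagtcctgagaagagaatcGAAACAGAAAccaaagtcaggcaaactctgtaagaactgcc
SAMD9 and GBP4 held 1 ISRE core each, TAP1 held 2 and IFIH1 held 3, with overlapping copies joined in 1 capital run. SAMD9L and PSMB9 held none in this window. All the genes shown but TAP1 reached the expression filter in no InsE library, which favoured their choice by size of difference. The start sites of TAP1 and PSMB9, which point away from each other, lie 488 bases apart.

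Guanylate-binding proteins, interferon-induced GTPases that act on intracellular pathogens, were lower in InsE than in the other lines in all 4 tested members. In that comparison 12.8% of all genes tested were called lower. GBP2 and GBP4 reached the expression filter in no InsE library, which favoured a lower call there. GBP4 reached it in libraries of InsF, InsG and InsH alone. GBP2 had 0.448 and 0.423 CPM in InsE, 2.24 to 3.90 CPM (median 2.69) in InsF, InsG and InsH, and 3.15 and 3.34 CPM in control. Both InsE libraries lay below all other 8, the log2 change (± SE, edgeR) of InsE was -2.86 ± 0.22 (adjusted p = 3.30e-05) against control and -2.68 ± 0.20 (adjusted p = 2.06e-05) against the mean of InsF, InsG and InsH, and the mean of InsF, InsG and InsH did not pass against control (-0.18 ± 0.14). GBP3 had 4.71 and 3.49 CPM in InsE, 13.0 to 17.8 CPM (median 14.5) in InsF, InsG and InsH, and 11.9 and 12.2 CPM in control. InsE fell against control (-1.48 ± 0.13, adjusted p = 6.46e-05), the mean of InsF, InsG and InsH rose (0.33 ± 0.09, adjusted p = 0.0241), and no library of 1 group overlapped another group. GBP1 had 3.07 and 2.33 CPM in InsE, 7.37 to 10.2 CPM (median 9.24) in InsF, InsG and InsH, and 6.14 and 5.29 CPM in control. GBP1 followed the same order, with -1.02 ± 0.16 (adjusted p = 0.00199) for InsE and 0.66 ± 0.12 (adjusted p = 0.00308) for the mean of InsF, InsG and InsH, both against control. GBP4 had 0.0640 and 0 CPM in InsE, 0.269 to 0.911 CPM (median 0.791) in InsF, InsG and InsH, and 0.168 and 0.462 CPM in control. The 2 GBP4 counts in InsE against 99 in InsF, InsG and InsH made InsE 15.1 times lower (95% counting interval 4.08 to 127), and against the 14 counts in control, where InsE did not pass (adjusted p = 0.0863), 5.78 times lower (1.33 to 52.4). The GBP4 difference from InsF, InsG and InsH was lost without InsE replicate 1 (adjusted p = 0.0626) and with limma (0.233). The rise of GBP3 in InsF, InsG and InsH was lost without control replicate 1 or 2 or InsH replicate 1 (0.196, 0.142 and 0.0558), with DESeq2 (0.148) and with limma (0.0650), and that of GBP1 without control replicate 2 (0.0585). These genes are close relatives, and estimated counts of GBP1, GBP2 and GBP3 were not whole in some libraries, so reads shared between copies may be split among them.

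Of the antigen processing genes, the peptide transporter subunit TAP1 and the immunoproteasome subunit PSMB9 were lower in InsE, and PSMB8, another immunoproteasome subunit, did not pass in any of the comparisons. TAP1 had 1.31 and 0.952 CPM in InsE, 5.997 to 7.08 CPM (median 6.44) in InsF, InsG and InsH, and 4.36 and 4.16 CPM in control. TAP1 changed by -1.82 ± 0.17 (adjusted p = 9.02e-05) in InsE and by 0.60 ± 0.11 (adjusted p = 0.00366) in the mean of InsF, InsG and InsH against control, without overlap between the groups. PSMB9 had 0.352 and 0.212 CPM in InsE, 1.16 to 2.15 CPM (median 1.95) in InsF, InsG and InsH, and 1.44 and 1.23 CPM in control. PSMB9, like PSMB8, reached the expression filter in no InsE library, which favoured a lower call there. InsE was below all other libraries (-2.09 ± 0.32, adjusted p = 0.00155, against control and -2.49 ± 0.28, adjusted p = 2.62e-04, against the mean of InsF, InsG and InsH), while InsF, InsG and InsH overlapped the control (0.40 ± 0.21, not called). PSMB8 had 0.320 and 0.423 CPM in InsE, 0.179 to 0.621 CPM (median 0.527) in InsF, InsG and InsH, and 0.738 and 0.667 CPM in control. The TAP1 rise in InsF, InsG and InsH was lost without control replicate 2 (adjusted p = 0.0592), with DESeq2 (0.0548) and with limma (0.0650). Exons of PSMB8 and PSMB9 overlap on opposite strands by 139 bases, and the strand setting of the counting is not given in the sources used here, so reads there cannot be told apart.

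Among the transcription factors, IRF1 was high in InsF, InsG and InsH and not in InsE, and IRF9, the DNA-binding part of the type I complex, was lower in InsE than in control and than in the other lines. IRF1 had 15.8 and 14.6 CPM in InsE, 27.7 to 32.6 CPM (median 29.95) in InsF, InsG and InsH, and 13.3 and 13.7 CPM in control. IRF1 changed by 1.14 ± 0.06 (adjusted p = 2.79e-06) in the mean of InsF, InsG and InsH and by 0.19 ± 0.08 (adjusted p = 0.125) in InsE against control, and every library of InsF, InsG and InsH lay above all of InsE and control. IRF9 had 9.96 and 10.9 CPM in InsE, 16.9 to 23.6 CPM (median 18.5) in InsF, InsG and InsH, and 18.4 and 17.8 CPM in control. The InsE change was -0.82 ± 0.11 (adjusted p = 0.00100) against control and -0.88 ± 0.10 (adjusted p = 2.58e-04) against the mean of InsF, InsG and InsH, which overlapped the control. STAT2, at 31.6 TPM in InsE, 37.9 TPM in the mean of InsF, InsG and InsH and 31.3 TPM in control, and IRF7 did not pass in any of the 3 comparisons. IRF1 exons overlap those of 2 genes on the other strand (1716 and 469 bases), with mean levels of 2.54 and 3.59 CPM against 23.7 CPM for IRF1.

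**Figure D2:**
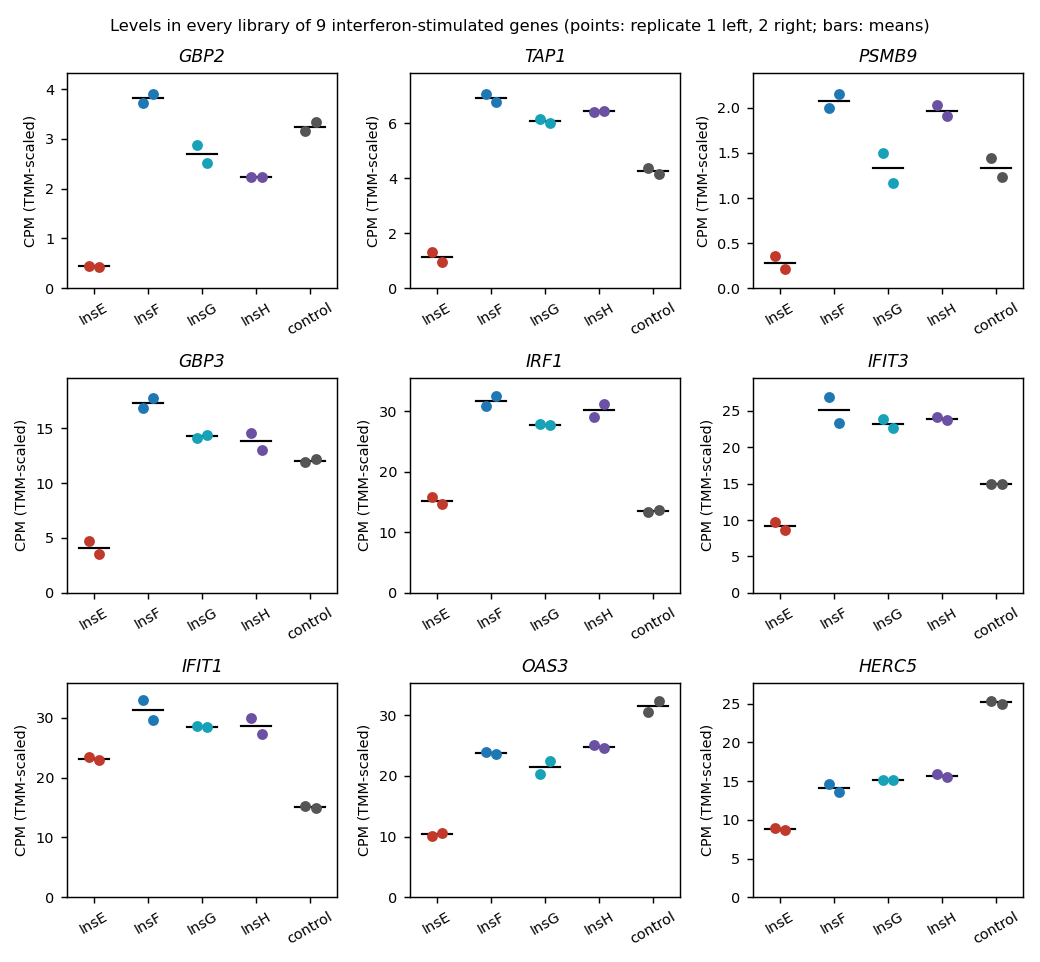
Level in CPM (y axis, from 0) of 9 interferon-stimulated genes in every library, by line (x axis). Points are libraries, replicate 1 on the left and replicate 2 on the right, and bars are means of 2. GBP2, TAP1, PSMB9 and GBP3 are lowest in InsE, IRF1 and IFIT1 are lowest in control, and OAS3 and HERC5 are highest in control. The 9 genes were picked after their values were seen.

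The IFIT genes, whose proteins bind foreign RNA, rose in InsF, InsG and InsH in 3 of 4 members and split in InsE. In the mean of InsF, InsG and InsH against control, 14.1% of all genes tested were called higher. In InsE against control, 10.8% were called higher and 12.4% lower. IFIT1 had 23.5 and 22.9 CPM in InsE, 27.3 to 32.9 CPM (median 29.1) in InsF, InsG and InsH, and 15.2 and 14.9 CPM in control. IFIT1 rose in InsE (0.63 ± 0.08, adjusted p = 6.74e-04) and in the mean of InsF, InsG and InsH (0.97 ± 0.07, adjusted p = 9.71e-06), and InsE stayed below all 6 libraries of InsF, InsG and InsH (-0.35 ± 0.07, adjusted p = 0.00470). IFIT3 had 9.73 and 8.67 CPM in InsE, 22.6 to 27.0 CPM (median 23.8) in InsF, InsG and InsH, and 14.9 and 14.9 CPM in control. IFIT3 fell in InsE (-0.67 ± 0.10, adjusted p = 0.00125) and rose in the mean of InsF, InsG and InsH (0.70 ± 0.07, adjusted p = 1.31e-04), without overlap between the groups. IFIT2 had 2.91 and 2.64 CPM in InsE, 4.98 to 6.38 CPM (median 5.61) in InsF, InsG and InsH, and 3.25 and 3.23 CPM in control. IFIT2 rose in the mean of InsF, InsG and InsH (0.79 ± 0.13, adjusted p = 0.00155) and did not pass in InsE (-0.20 ± 0.16, adjusted p = 0.456), while the difference between them passed (-0.997 ± 0.14, adjusted p = 7.90e-04). IFIT5 did not pass in any of the 3 comparisons. An exon of IFIT2 overlaps the end of LIPA, on the other strand with 63.8 CPM, by 65 bases, and LIPA itself differed by 0.05 on the log2 scale between InsE and the mean of InsF, InsG and InsH.

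The oligoadenylate synthetases are antiviral enzymes that sense double-stranded RNA. Both tested members were lower in InsE than in the other lines, but stood on opposite sides of the control in InsF, InsG and InsH. Of all genes tested, 12.8% were called lower in InsE than in the mean of InsF, InsG and InsH. OAS2 reached the expression filter in libraries of InsF, InsG and InsH alone. For OAS2 a lower value in InsE and a higher one in InsF, InsG and InsH were thereby favoured. OAS3 had 10.1 and 10.7 CPM in InsE, 20.3 to 25.02 CPM (median 23.8) in InsF, InsG and InsH, and 30.6 and 32.3 CPM in control. OAS3 fell in InsE (-1.61 ± 0.08, adjusted p = 3.55e-06) and less in the mean of InsF, InsG and InsH (-0.44 ± 0.06, adjusted p = 4.95e-04), and InsE was below the others (-1.18 ± 0.07, adjusted p = 6.07e-06). OAS2 had 0.128 and 0.106 CPM in InsE, 0.663 to 1.01 CPM (median 0.837) in InsF, InsG and InsH, and 0.101 and 0.359 CPM in control. OAS2 rose in the mean of InsF, InsG and InsH (1.95 ± 0.45, adjusted p = 0.0108), all 6 of whose libraries exceeded the other 4, and the difference from InsE was -2.72 ± 0.54 (adjusted p = 0.00579). That difference was lost without InsE replicate 1 (adjusted p = 0.0866). The rise in InsF, InsG and InsH was lost without control replicate 1 (0.144), with DESeq2 (0.0636) and with limma (0.0820), and the fall of OAS3 in InsF, InsG and InsH was lost with limma (0.661).

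Of the cytoplasmic RNA sensors, IFIH1 (MDA5), DDX58 (RIG-I) and the helicase DDX60 were all lower in InsE than in the mean of InsF, InsG and InsH. In that comparison 12.8% of all genes were called lower. IFIH1 had 0.352 and 0.212 CPM in InsE, 1.08 to 1.54 CPM (median 1.29) in InsF, InsG and InsH, and 0.537 and 0.667 CPM in control. It reached the expression filter in no InsE library, which favoured a lower call there. IFIH1 rose in the mean of InsF, InsG and InsH (1.15 ± 0.28, adjusted p = 0.0136), did not pass in InsE (-0.93 ± 0.40), and differed between them by -2.08 ± 0.33 (adjusted p = 0.00191). The rise was lost without control replicate 1 or 2 (adjusted p = 0.160 and 0.0706), with DESeq2 (0.140) and with limma (0.0655). DDX60 differed between InsE and InsF, InsG and InsH by -0.90 and fell in InsE by 0.61 against control, a fall lost without control replicate 1 or InsE replicate 2 (0.122 and 0.0565), with DESeq2 (0.0565) and with limma (0.189). DDX58 differed by -0.47, a call lost without any of 8 of the 10 libraries (largest adjusted p = 0.217, without InsE replicate 2), with only the groups compared (0.0681), with DESeq2 (0.133) and with limma (0.0783).

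Among the antiviral effectors, SAMD9, SAMD9L and RSAD2 passed as lower in InsE than in the mean of InsF, InsG and InsH. SAMD9 and SAMD9L are neighbouring genes that restrict poxviruses, and RSAD2 (viperin) is a radical SAM enzyme. All of them reached the expression filter in no InsE library, which favoured a lower call there. SAMD9 reached it in libraries of InsF, InsG and InsH alone, which also favoured a higher value in those lines than in control. SAMD9 had 0.0320 and 0 CPM in InsE, 0.431 to 0.663 CPM (median 0.562) in InsF, InsG and InsH, and 0.101 and 0.205 CPM in control. The 1 count in InsE against 70 in InsF, InsG and InsH made InsE 21.4 times lower (95% counting interval 3.72 to 857), and against 7 in control 5.78 times lower (0.742 to 260), with an interval that reaches below 1. With limma the difference from InsF, InsG and InsH was not called (adjusted p = 0.142). SAMD9 rose in the mean of InsF, InsG and InsH (1.86 ± 0.48, adjusted p = 0.0169), a call lost without control replicate 1 or 2 (0.224 and 0.0618), with DESeq2 (0.158) and with limma (0.257). SAMD9L had 0.128 and 0.106 CPM in InsE, 0.414 to 1.04 CPM (median 0.833) in InsF, InsG and InsH, and 0.168 and 0.513 CPM in control. SAMD9L differed between InsE and InsF, InsG and InsH by -2.59 ± 0.61 (adjusted p = 0.0131), a call lost without InsE replicate 1 or 2 (0.137 and 0.0586) and with limma (0.112). RSAD2 had 0.384 and 0.212 CPM in InsE, 0.958 to 2.07 CPM (median 1.28) in InsF, InsG and InsH, and 0.905 and 0.924 CPM in control. RSAD2 differed between InsE and InsF, InsG and InsH by -2.04 ± 0.35 (adjusted p = 0.00284) and fell in InsE against control by 1.45, a fall lost without either replicate of InsE or control (adjusted p = 0.0799 to 0.116) and with DESeq2 (0.173). CMPK2 had 3.46 and 3.28 CPM in InsE, 4.06 to 5.52 CPM (median 4.60) in InsF, InsG and InsH, and 6.07 and 6.26 CPM in control. CMPK2, a mitochondrial nucleotide kinase gene beside RSAD2, was highest in control, with -0.86 ± 0.15 (adjusted p = 0.00281) in InsE and -0.41 ± 0.11 (adjusted p = 0.0215) in the mean of InsF, InsG and InsH. Its fall in InsF, InsG and InsH was lost without control replicate 1 or 2 (0.130 and 0.153), without the filter (0.0537), with DESeq2 (0.239) and with limma (0.248), its lower level in InsE than in InsF, InsG and InsH (-0.45) in 6 of 10 settings that left out 1 library (largest 0.163, without InsE replicate 1), without the filter (0.0708), with DESeq2 (0.268) and with limma (0.158), and its fall in InsE with limma (0.0680). MX1, an antiviral GTPase, did not pass in any of the 3 comparisons.

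By TPM, the most abundant of the 49 genes were those of the membrane proteins BST2 and IFITM3, whose log2 changes were under 1. BST2 (tetherin), which holds budding virus at the cell surface, had a mean of 572 TPM in InsE, 558 TPM in InsF, InsG and InsH, and 482 TPM in control. BST2 was higher in InsE than control by 0.24 on the log2 scale, a call lost without either control replicate or InsE replicate 2 (adjusted p = 0.137, 0.0919 and 0.0905). IFITM3, which blocks viral entry, had 401 TPM in InsE, 528 TPM in InsF, InsG and InsH, and 569.6 TPM in control. It was lower in InsE than in control (-0.50) and than in InsF, InsG and InsH (-0.32), calls lost without InsE replicate 1 (0.0548 and 0.216). IFITM1 was lower in InsE than in InsF, InsG and InsH (-0.78), also lost without that library (0.282), and IFITM2 did not pass. The 3 IFITM genes are close copies whose estimated counts were not whole in any of the 10 libraries, so their reads may be split. The next genes by mean TPM over all libraries, IFI6 (43.1), ISG15 (39.2) and STAT2 (35.3), did not pass in any of the 3 comparisons, and of all 49 members 15 had a mean of at least 10 TPM and 16 a mean under 1 TPM.

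In the ISG15 conjugation group, the ligase HERC5 was lower than control in all 4 lines, and ISG15, the ubiquitin-like modifier itself, was not called. HERC5 had 8.96 and 8.67 CPM in InsE, 13.7 to 15.9 CPM (median 15.2) in InsF, InsG and InsH, and 25.3 and 24.99 CPM in control. HERC5 fell in InsE (-1.51 ± 0.08, adjusted p = 3.94e-06) and in the mean of InsF, InsG and InsH (-0.75 ± 0.06, adjusted p = 1.66e-05), and InsE was below the other lines (-0.76 ± 0.07, adjusted p = 6.55e-05), with no overlap between any of the 3 sets. USP18, the protease that removes ISG15, changed by -0.41 in InsE and by -0.20 in the mean of InsF, InsG and InsH. Leaving out control replicate 1 ended the USP18 call in InsE (adjusted p = 0.0763, or 0.0669 with DESeq2), and that in InsF, InsG and InsH ended in 9 of 10 settings that left out 1 library (largest 0.369, without control replicate 1), with DESeq2, limma or library sizes alone (0.314, 0.376 and 0.128), without the filter (0.106) and with only the groups compared (0.0536). HERC6 and ISG15 did not pass, and ISG15 had 11.9 and 14.5 CPM in InsE, 11.9 to 13.8 CPM (median 13.4) in InsF, InsG and InsH, and 10.999 and 12.1 CPM in control, overlapping ranges.

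PARP9 and DTX3L, whose proteins form an ADP-ribosylation and ubiquitin ligase complex, and the ADP-ribosyltransferase PARP14 were lowest in InsE. DTX3L had 36.9 and 35.2 CPM in InsE, 47.5 to 55.8 CPM (median 53.5) in InsF, InsG and InsH, and 57.1 and 59.7 CPM in control. DTX3L fell in InsE against control (-0.69 ± 0.08, adjusted p = 4.86e-04) and was lower there than in the mean of InsF, InsG and InsH (-0.55 ± 0.07, adjusted p = 6.04e-04). PARP9 changed by -0.61 in InsE against control and by -0.71 against the mean of InsF, InsG and InsH, and exons of the pair overlap on opposite strands by 217 bases. PARP14 changed by -0.64 in InsE and by -0.21 in the mean of InsF, InsG and InsH against control, and InsE was below the other lines (-0.43). The PARP14 call in InsF, InsG and InsH was lost in 7 of 10 settings that left out 1 library (largest adjusted p = 0.244, without control replicate 1) and with DESeq2, library sizes alone or limma on TPM, which gave a change of 0.0744. XAF1 had 1.98 and 0.741 CPM in InsE, 2.24 to 5.48 CPM (median 4.26) in InsF, InsG and InsH, and 2.62 and 3.39 CPM in control. XAF1, linked to apoptosis, was lower in InsE than in the mean of InsF, InsG and InsH (-1.43 ± 0.37, adjusted p = 0.0192), a call lost without InsE replicate 2 (adjusted p = 0.0946), and 2535 of its exon bases overlap the antisense gene PRAL. PRAL, at a mean of 1.35 CPM against 3.37 CPM for XAF1, itself differed by -1.67 in the same comparison, and reads of the pair cannot be told apart. IFI27, IFI6 and IFI35 did not pass in any of the 3 comparisons.

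**Figure D3:**
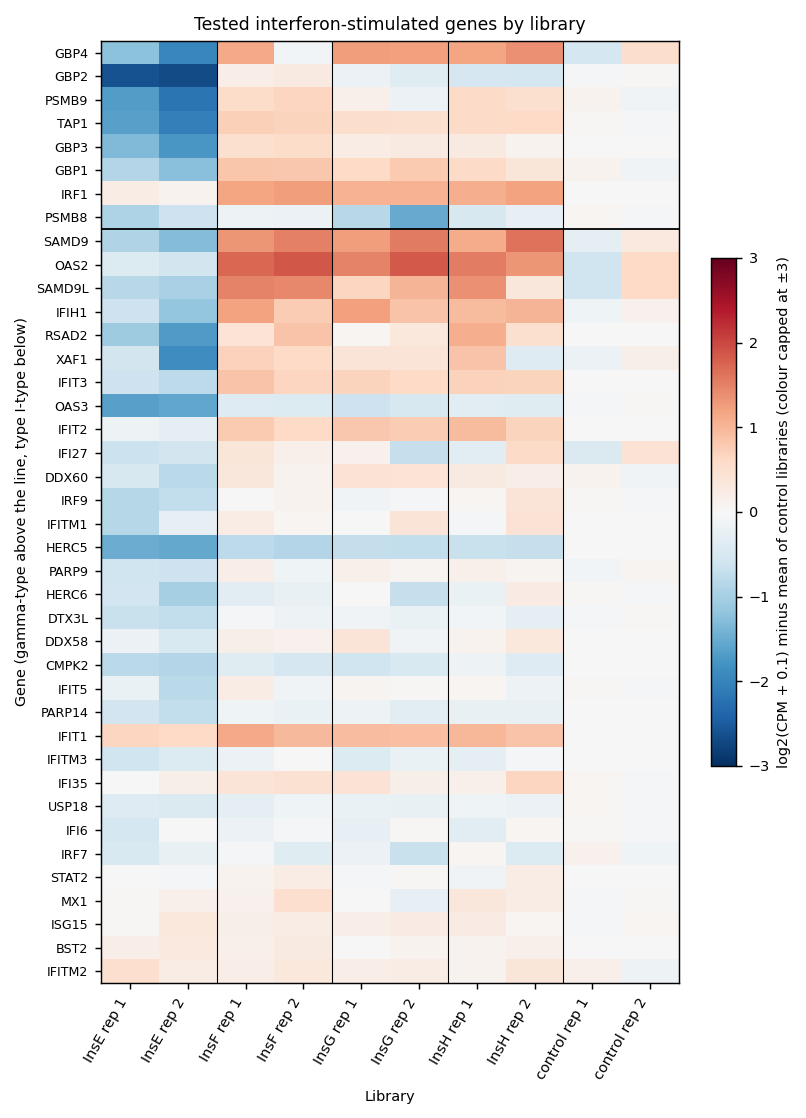
Level of each tested gene (y axis) in every library (x axis) as log2(CPM + 0.1) minus the mean of the control libraries, in colour (red higher, blue lower, limited to 3 either way). GBP2, PSMB9, TAP1 and GBP3 are a darker blue in both InsE libraries than in any other library, and IFIT1 is red in all 8 line libraries.

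Against control, InsE differed mostly downward. In InsE 19 of the 40 tested genes passed, 2 higher and 17 lower, where 23.2% of all genes were called, 10.8% higher and 12.4% lower. The median log2 change was -0.68 over the 40 genes and 0.01 over all genes tested. InsE and control libraries did not overlap for 36 of the 40 genes, where with 2 libraries each 32.4% of all genes lay wholly below and 32.8% wholly above the control. Of the genes that did not pass, IFI6 (-0.31) and ISG15 (0.17) had the highest TPM. Of the 27 genes lower in InsE than in the mean of InsF, InsG and InsH, 16 were also lower in InsE than in control. Both comparisons use the same 2 InsE libraries, so this overlap is partly built in. Its share over all genes is not given here.

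In the mean of InsF, InsG and InsH against control, 15 of the 40 tested genes passed, 10 higher and 5 lower, where 28.9% of all genes were called, 14.1% higher and 14.9% lower. The median log2 change was 0.19 over the 40 genes and 0.01 over all genes tested. OAS2 and SAMD9, called higher, and GBP4, not called, reached the expression filter in libraries of InsF, InsG and InsH alone. For these genes a higher value in those lines was favoured. Without TMM scaling, 12 were higher and 3 lower. Leaving out control replicate 1 gave a count of 8, leaving out control replicate 2 gave 7, and DESeq2 gave 7. Libraries of InsF, InsG and InsH did not overlap those of control for 20 of the 40 genes, where 20.4% of all genes lay wholly above and 21.2% wholly below. BST2 (0.13) and IFITM3 (-0.19) were the genes of highest TPM that did not pass.

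The comparisons of InsE and of InsF, InsG and InsH with control share both control libraries, so their values are set side by side and not correlated. IFIT3, GBP1, GBP3 and TAP1 passed as lower in InsE and as higher in the mean of InsF, InsG and InsH, and the difference between InsE and that mean passed for each. IFIT1 passed as higher in both. OAS3, USP18, HERC5, CMPK2 and PARP14 passed as lower in both, and of these USP18 did not pass between InsE and the mean of InsF, InsG and InsH (-0.21). IFIT2, OAS2, IRF1, IFIH1 and SAMD9 passed as higher in the mean of InsF, InsG and InsH and did not pass in InsE against control, with log2 changes there of -0.20, -0.77, 0.19, -0.93 and -2.33. For OAS2 and SAMD9 the higher value was favoured, since they reached the expression filter in libraries of InsF, InsG and InsH alone. IFITM3, IRF9, GBP2, RSAD2, DDX60, PSMB9, PARP9 and DTX3L passed as lower in InsE and did not pass in the mean of InsF, InsG and InsH, where changes ran from -0.19 (IFITM3) to 0.59 (RSAD2). BST2 passed as higher in InsE and did not pass in the mean of InsF, InsG and InsH, and 16 genes passed in neither.

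**Figure D4:**
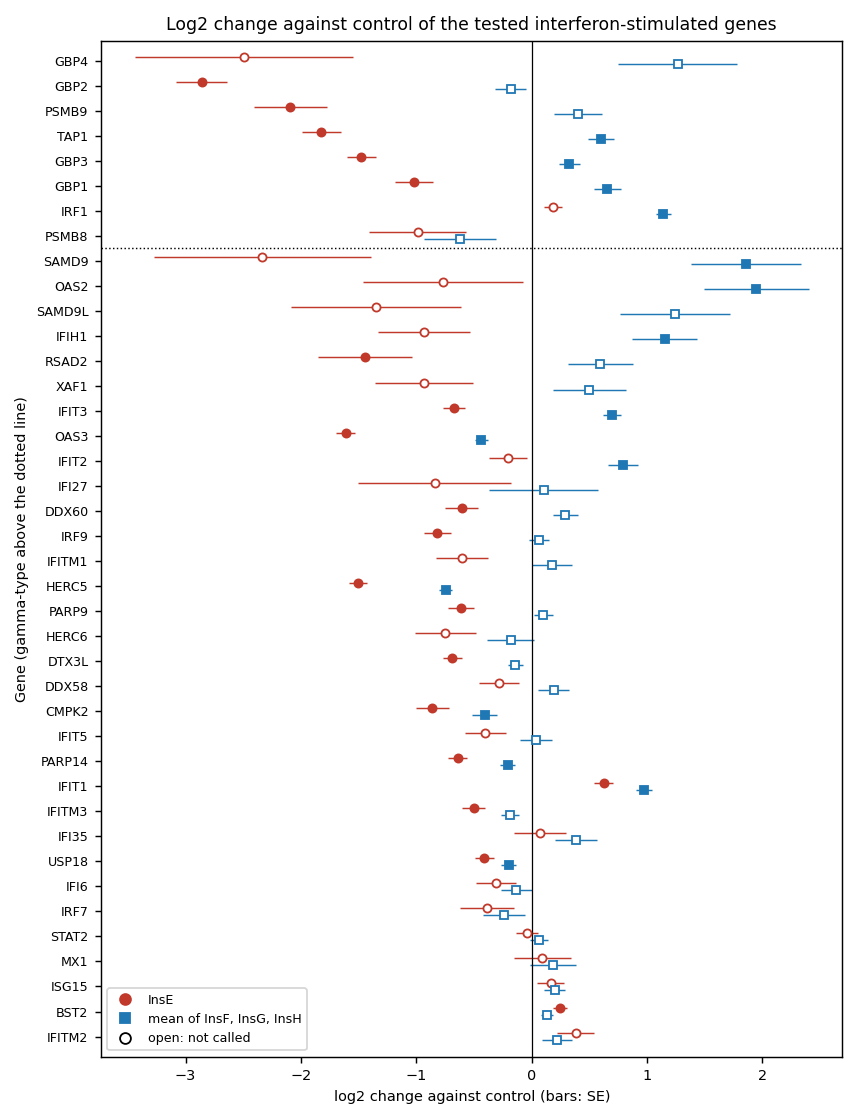
Log2 change against control (x axis) of each tested gene (y axis), for InsE (circles) and for the mean of InsF, InsG and InsH (squares). Bars are SE, filled symbols passed the test, and gamma-type genes stand above the dotted line. For IFIT3, GBP1, GBP3 and TAP1 both symbols are filled on opposite sides of 0, and for HERC5 and OAS3 both are filled below 0.

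A test of any difference among InsF, InsG and InsH called 0 of the 40 genes, where it called 0.09% of all genes tested, so that the count says nothing particular to these genes, with 3 at an unadjusted p under 0.05 (GBP2, GBP3 and OAS3) and 0 by DESeq2 and by limma. The 2 libraries of each line stood apart from those of the others for GBP2, which had 3.73 and 3.90 CPM in InsF, 2.87 and 2.51 CPM in InsG, and 2.24 and 2.24 CPM in InsH. Taken singly against control, InsF had 13 genes called, 11 higher and 2 lower, where 22.3% of all genes were called, 10.9% higher and 11.3% lower. InsG had 12 called, 9 higher and 3 lower, where 20.3% of all genes were called, 9.86% higher and 10.5% lower. InsH had 10 called, 8 higher and 2 lower, where 18.4% of all genes were called, 8.95% higher and 9.46% lower. IFIT1, IFIT2, IFIT3, IRF1, GBP1, TAP1, IFIH1 and OAS2 passed as higher, and HERC5 and OAS3 as lower, in each of the 3 lines. Of these only IFIT1, IFIT3, IRF1 and HERC5 held under every alternative in each line. The 3 comparisons share both control libraries, so calls common to the lines are partly built in. The share of all genes called alike in each line is not given here. OAS2 reached the expression filter in libraries of these lines alone, which favoured its higher calls. In InsH the calls of IFIH1, OAS2 and GBP1 were lost under 13, 12 and 10 of 17 alternatives. With limma OAS3 in InsH turned to 0.0294. The log2 change of IRF1 was 1.23 (InsF), 1.04 (InsG) and 1.15 (InsH), and that of HERC5 was -0.83, -0.73 and -0.68 in the same order. Leaving out a control library, or a library of the line, took the counts as low as 7 in InsF, 6 in InsG and 4 in InsH. Calls that held under every alternative tried numbered 5 of 13 in InsF, 4 of 12 in InsG and 4 of 10 in InsH.

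The other 9 genes had too few counts to be tested, and are given as total counts over the libraries of InsE, of InsF, InsG and InsH together, and of control, which held 40.4, 132.1 and 50.9 M counts. OAS1, a further oligoadenylate synthetase, had 2, 47 and 8 counts. IFI44 had 1, 40 and 5, its relative IFI44L 4, 28 and 2, and the antiviral TRIM family member TRIM22 1, 26 and 2. The OAS-like gene OASL had 2, 10 and 4, and GBP5, the gamma-type gene of this set, 1, 11 and 1. The GTPase gene MX2 had 0, 4 and 0, the exonuclease gene ISG20 0, 2 and 0, and EPSTI1 0, 2 and 0. In InsE and in control, MX2, ISG20 and EPSTI1 were under the level that 3 counts would give, so a difference was not detectable at this depth.

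The interferon genes themselves had almost no counts. Of 21 ligand genes (type I, II and III) 19 had no count in any library, and the other 2, IFNA5 and IFNW1, had 2 counts in all, 1 each, of 223.4 M. Of 9 tested receptor, JAK and STAT genes, 3 passed as lower and 1 as higher in InsE against the mean of InsF, InsG and InsH, where 12.8% of all genes were called lower and 11.4% higher. STAT3, a transcription factor that many cytokine receptors activate, had 64.3 and 68.2 CPM in InsE, 84.9 to 96.1 CPM (median 88.6) in InsF, InsG and InsH, and 80.2 and 81.3 CPM in control. Both InsE libraries lay below every other library, and the difference from the mean of InsF, InsG and InsH was -0.43 ± 0.05 (adjusted p = 3.19e-04). The receptor chains IFNGR2 and IFNGR1 differed by 0.28 and -0.21 and JAK1 by -0.18. Of the same 9 genes, 2 passed as lower in InsE against control, JAK1 (-0.38) and STAT3 (-0.29), where 12.4% of all genes were called lower. In the mean of InsF, InsG and InsH against control 4 passed as higher and 2 as lower (14.1% and 14.9% of all genes), led by the kinase JAK2 (0.60), the shared receptor chain IL10RB (0.43), IFNGR2 (-0.35) and IFNGR1 (0.32). Between InsE and InsF, InsG and InsH, the IFNGR1 call was lost without any of 8 of the 10 libraries (largest adjusted p = 0.250, without InsE replicate 1), without the filter (0.0552), with only the groups compared (0.0510) and with DESeq2 (0.222). The IFNGR2 call there was lost without either InsE replicate (0.0897 and 0.0916), with DESeq2 (0.123) and with limma (0.145), and that of JAK1 without either InsE replicate (0.0520 and 0.0907). That of STAT3 in InsE against control was lost without either control replicate or InsE replicate 1 (0.0557 to 0.0713), and all 4 calls named in InsF, InsG and InsH against control without control replicate 1 (0.0647 to 0.116), that of JAK2 also without control replicate 2 (0.181), and those of JAK2 and IFNGR2 with limma (0.118 and 0.0990).

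Of 12 tested genes that sense nucleic acid upstream of interferon, 5 passed as lower and 1 as higher in InsE against the mean of InsF, InsG and InsH, where 12.8% of all genes were called lower and 11.4% higher. TLR3, the endosomal receptor for double-stranded RNA, differed by -0.92 ± 0.13 (adjusted p = 0.00111), and its adaptor TICAM1 (TRIF) by 0.63 ± 0.12 (adjusted p = 0.00439), in opposite directions. TLR3 had 5.38 and 3.91 CPM in InsE, 7.79 to 10.0 CPM (median 9.36) in InsF, InsG and InsH, and 7.01 and 7.29 CPM in control. TICAM1 had 13.7 and 14.3 CPM in InsE, 8.07 to 10.4 CPM (median 9.29) in InsF, InsG and InsH, and 11.97 and 15.0 CPM in control. For both genes InsE and InsF, InsG and InsH did not overlap. The DNA-sensing adaptor TMEM173 (STING) and the RNA-editing enzyme ADAR differed by -0.28 and -0.27, and the TMEM173 call was lost without InsE replicate 1 or 2 (adjusted p = 0.0733 and 0.0519) and with DESeq2 (0.0638). Against control 5 of the 12 passed as lower in InsE (12.4% of all genes), among them TLR3 (-0.56), ADAR (-0.43), the kinase EIF2AK2 (-0.35) and the ligase TRIM25 (-0.26). The calls of TLR3, EIF2AK2 and TRIM25 were lost without control replicate 1 (0.112, 0.0899 and 0.0545) or control replicate 2 (0.136, 0.0600 and 0.122), and also those of TLR3 and EIF2AK2 without InsE replicate 2 (0.111 and 0.0721), that of TLR3 with DESeq2 and limma (0.128 and 0.123) and that of TRIM25 without InsE replicate 1 (0.110). In the mean of InsF, InsG and InsH 2 passed as higher and 4 as lower (14.1% and 14.9% of all genes), led by TICAM1 (-0.58), TLR3 (0.36), TMEM173 (0.22) and ADAR (-0.16). Without control replicate 2 the calls of TICAM1, TMEM173 and ADAR there were lost (0.0856, 0.149 and 0.105), as were those of TMEM173 and ADAR without control replicate 1 (0.132 and 0.139). The TLR3 call there was lost in 7 of 10 settings that left out 1 library (largest 0.290, without control replicate 1), with RLE normalisation (0.0513), with DESeq2 (0.231) and with limma (0.191). The TMEM173 call was also lost without the filter (0.0623) and with DESeq2 (0.147), and that of ADAR with library sizes alone (0.0715) and with limma (0.516).

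Of 8 tested negative regulators of JAK-STAT signalling, 2 passed between InsE and the mean of InsF, InsG and InsH, the phosphatases PTPN2 (0.28) and PTPN1 (-0.22), where 24.2% of all genes were called, so that the share was near that of all genes. The PTPN2 call was lost in 6 of 10 settings that left out 1 library (largest adjusted p = 0.238, without InsE replicate 1), with only the groups compared (0.0604), with DESeq2 (0.124) and with limma (0.268). The PTPN1 call was lost without InsE replicate 1 (0.213) and with DESeq2 (0.0707). Against control, the interferon-induced inhibitor SOCS1 was lower in InsE (-0.65) and in the mean of InsF, InsG and InsH (-0.43), as was PIAS1 (-0.22 and -0.28), and SOCS3 was lower in the mean of InsF, InsG and InsH (-0.53), so that 2 of 8 passed as lower in InsE (12.4% of all genes) and 3 of 8 in the mean of InsF, InsG and InsH (14.9%). None passed as higher there by edgeR, DESeq2 or limma, or at an unadjusted edgeR p under 0.05. SOCS1 had 6.88 and 8.25 CPM in InsE, 6.87 to 9.88 CPM (median 8.85) in InsF, InsG and InsH, and 11.4 and 11.9 CPM in control. Control libraries exceeded all line libraries for SOCS1, and its call was lost in InsE without InsE replicate 1 or control replicate 2 (0.0882 and 0.0511) and in InsF, InsG and InsH without either control replicate (0.0857 and 0.106) and with DESeq2 (0.0812). The PIAS1 call in InsE was lost without any library of InsE or control (0.0628 to 0.178), without the filter (0.0628) and with library sizes alone, DESeq2 or limma (0.0857, 0.219 and 0.0738), and that in InsF, InsG and InsH with limma (0.105). The SOCS3 call was lost without either control replicate (0.229 and 0.0772), with DESeq2 (0.111) and with limma (0.117).

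The 49 genes lie on 18 chromosomes. On chromosome 11, where the fibroblast growth factor gene FGF3 lies, stood IFITM1, IFITM2, IFITM3, IRF7 and TRIM22, between 64.1 and 69.5 Mb from FGF3 by GENCODE 29 positions (hg38).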

How the data were processed

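Polyadenylated RNA of 10 libraries was sequenced. The tools named are STAR 2.5.3, RSEM 1.3.2 and DESeq2 1.38.3, and the build hg38, per the submitters' processing notes. Per the file headers, the authors deposited expected counts (estimated fragments per gene, not normalised) and TPM per library. A further table's 10 value columns were not used, because their names did not match the labels. Expected counts were rounded and tested with edgeR 4.0.16 in R 4.3.3 (robust quasi-likelihood, TMM, minimum count 10, 15554 genes, all libraries in 1 fit, 5 residual degrees of freedom), with two-sided p-values adjusted over all genes tested (Benjamini-Hochberg, threshold 0.05). Changes are log2 ± SE. The steps were tested on simulated data. Alternatives were RLE normalisation, library sizes alone, no filter, DESeq2 1.42.0, limma 3.58.1 on log2(TPM + 1), only the groups compared, a replicate block and leaving out each library.

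Values per library are given for called genes, up to the 12 with the largest change per comparison. Other called genes are given by their change, uncalled ones by counts with the 2 of highest TPM, and other pathway genes up to 4 per list and comparison. Some pathway genes are not reported here. The members, the lists and the rule were chosen with earlier results of these data known. Intervals and floors (3 counts) cover counting error only. Positions came from GENCODE 29, to which all 49 genes matched by Ensembl identifier, and promoters from RefSeq.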

Additional observations from a re-analysis of the deposited data

Results flagged for a closer look

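In InsE against the mean of InsF, InsG and InsH (edgeR), 27 of the 40 tested genes passed, all as lower in InsE. Over all genes 12.8% were called lower. What made the lines differ was not tested. The largest log2 differences were those of SAMD9 (-4.19), GBP4 (-3.76), OAS2 (-2.72), GBP2 (-2.68), SAMD9L (-2.59), PSMB9 (-2.49), TAP1 (-2.43), IFIH1 (-2.08), RSAD2 (-2.04), GBP3 (-1.80), GBP1 (-1.68), XAF1 (-1.43), IFIT3 (-1.37) and OAS3 (-1.18). The fitted values of SAMD9 and GBP4 rest on 1 and 2 counts in InsE, so their size depends on the prior count of the fit. SAMD9, GBP4 and OAS2 passed the expression filter through libraries of InsF, InsG and InsH alone. GBP2, SAMD9L, PSMB9, IFIH1 and RSAD2 also reached it in no InsE library. For all of these genes a lower value in InsE, and so a high place in this ranking, was favoured. The other genes were IFIT2 (-0.997), IRF1 (-0.96), DDX60 (-0.90), IRF9 (-0.88), IFITM1 (-0.78), HERC5 (-0.76), PARP9 (-0.71), DTX3L (-0.55), DDX58 (-0.47), CMPK2 (-0.45), PARP14 (-0.43), IFIT1 (-0.35) and IFITM3 (-0.32). Among the other pathway genes named, the difference passed for STAT3 (-0.43), IFNGR2 (0.28), IFNGR1 (-0.21), JAK1 (-0.18), TLR3 (-0.92), TICAM1 (0.63), TMEM173 (-0.28), ADAR (-0.27), EIF2AK2 (-0.27), PTPN2 (0.28) and PTPN1 (-0.22). Dixon's test for a single library far from its group could not be used, since groups held 2 libraries.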

How the results depend on the processing

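The counts of genes called in InsE against control (19) and against the mean of InsF, InsG and InsH (27) stayed within 1.5 times under each alternative, at 15 to 25 and 21 to 30, and 0 were called among InsF, InsG and InsH under each. With DESeq2 the other counts moved to 7 for the mean of InsF, InsG and InsH against control, 8 for InsF, 6 for InsG and 4 for InsH, and with limma on log2(TPM + 1) to 6 for InsG and 6 for InsH. Leaving out 1 library gave 15 to 20 for InsE against control, 7 to 14 for the mean of InsF, InsG and InsH, 21 to 27 for InsE against that mean, 7 to 13 for InsF, 6 to 14 for InsG and 4 to 8 for InsH. Depth was lowest in InsE replicate 2 (9.4 M counts), which limits the genes with a few counts there. A lone library left in an arm is assumed to vary like the other groups. Calls kept under every alternative numbered 13 of 19 in InsE against control, 5 of 15 in the mean of InsF, InsG and InsH, and 18 of 27 between them. With limma PARP14 in the mean of InsF, InsG and InsH turned to 0.0744 and OAS3 in InsH to 0.0294, and the cause was not tested. Replicate 1 was deeper than replicate 2 in each group, and the labels do not tie equal numbers together. Same-numbered deviations from group means correlated at 0.39 to 0.46 between lines and 0.003 to 0.043 between a line and control, over 15554 genes. With the replicate number as a block the counts were 23 for InsE against control, 20 for the mean of InsF, InsG and InsH, 30 for InsE against that mean (29 lower, 1 higher), 17 for InsF, 16 for InsG, 15 for InsH and 0 among the 3.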
